A study of Mus musculus with 30 samples.

Results

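Osteoclasts were grown from Terc-/- mice, which lack the RNA that telomerase copies into telomere repeats, and the cultures of 6-month-old donors were compared with those of 1-month-old donors within the samples whose titles carry the number 519, called set 519 here. The samples were chosen by title and are 6 of the 30 samples of the series, 3 of each age, numbered 2, 3 and 4. All donors of set 519 were C57BL/6J mice of genotype Terc-/-, so by the labels the comparison is one of age within 1 genotype. Macrophages derived from bone marrow were kept with 25 ng/ml of M-CSF and 100 ng/ml of RANKL until large multinucleated cells were seen. The end point was thus set by the look of the dish. The number of days, the sex of the donors and the breeding generation of the Terc-/- line are not given in the sources used here, and the labels do not explain the number 519. The other samples are 6 Terc-/- cultures of the same ages without a number in the title (unprefixed) and 18 wild-type (WT) samples. The WT samples are of 1, 6 or 20 months, and some of them are 2-day cultures. Of the 1-month WT samples, 3 carry D1gaiweiBP in the title. These are not among the WT cultures called unprefixed below. All 30 samples entered the same fit. The study asked whether osteoclasts of WT or Terc-/- mice of different ages differ in gene expression.

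Osteoclasts are the cells that dissolve bone. They arise when RANKL binds its receptor RANK on macrophages, which induces the transcription factors Fos and Nfatc1, lowers macrophage repressors such as Irf8, and makes mononuclear precursors fuse. A mature osteoclast seals off an area of bone, pumps acid onto it with the vacuolar proton pump and a chloride channel, and digests the collagen with cathepsin K and metalloproteinases. Fusion and acid secretion use much ATP, and the differentiating cell builds many mitochondria. Telomerase adds repeats to chromosome ends, and shortened ends can switch on p53 and its target Cdkn1a, which stop the cell cycle.

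Total counts were 4269798 to 12987993 per library in set 519, against 13182063 to 25147975 in the other 24, so genes of low level were measured less precisely here. Terc was listed at 0 counts in all 6 libraries, whose 53924307 counts together allow a level of up to 0.0556 CPM (counts scaled to a library of 1000000). All 18 WT libraries together held 5 counts of Terc, so this level does not check the genotype. Each of the 10 osteoclast markers used to check the cell type was present in every library, the lowest being Car2 at 11.9 CPM. Replicate 2 of the 1-month group stood apart. It differed from replicates 3 and 4 by a chi-square of 10.1 and 6.6 per degree of freedom, while those differed from each other by 1.33 and the 6-month pairs by 1.28 to 1.77. When genes were split into 4 equal classes of exon length, those in the shortest class were higher in it than in replicates 3 and 4 (median log2 difference 0.18) and those in the longest class lower (-0.14). Lars2 had 334 CPM in that library and 80.9 to 114 CPM in the other 5, and mt-Co2 9.09 against 14.0 to 37.8 CPM. The labels do not say whether replicates are separate mice or dishes, so p-values reflect how far libraries of one group lie apart, pooled over the 10 groups of the fit, and that scatter may be technical.

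At an adjusted p under 0.05 (edgeR's quasi-likelihood test, Benjamini-Hochberg over the 15310 genes tested), 4970 genes differed between 6 and 1 months in set 519, which is 32.5% of those tested. Of these, 2944 were higher at 6 months (19.2%) and 2026 lower (13.2%). Scaled by median-ratio (RLE) factors in place of TMM, the same test gave 2392 higher and 2588 lower, so the balance of rises and falls depends on the scaling. The median log2 fold change over all genes moved from 0.04 to -0.02 between both scalings. A change of 2-fold or more was seen in 513 genes that rose (3.35%) and 530 that fell (3.46%). Without 1-month replicate 2, 4813 genes passed, 2925 higher and 1888 lower. Of the gene lists described below, the resorption, mitosis and nuclear respiratory chain lists, among others, had the same counts of higher and lower genes without that library. Every log2 fold change below is 6 months minus 1 month with its standard error, positive where the 6-month cultures were higher, and levels are TMM-scaled CPM in replicates 2, 3 and 4 in that order. For each gene named below that passed, the 3 libraries of one age did not overlap the 3 of the other, with the exception of mt-Atp8.

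The genes of bone resorption rose together. All 21 members of the resorption list were higher at 6 months, against 19.2% of all genes, with a median log2 fold change of 1.54 where that of all genes was 0.04. In each of the 21 the 3 libraries of one age lay clear of the 3 of the other, as they did for 41.4% of all genes tested. Ctsk, cathepsin K, the protease that cuts bone collagen (ENSMUSG00000028111, chr3:95499256-95509362, plus strand, GRCm38), had 1551, 1345 and 1344 CPM at 1 month and 5860, 5849 and 5642 CPM at 6 months. It was 4.09-fold higher at 6 months (log2 2.03 ± 0.08, adjusted p = 4.7e-20). Within each age the 3 libraries were close to each other, and the 6-month libraries lay far above the 1-month ones. Acp5, the tartrate-resistant acid phosphatase used to stain osteoclasts, had 1958, 1378 and 1412 CPM at 1 month and 5974, 5959 and 5734 CPM at 6 months and was 3.72-fold higher at 6 months (log2 1.90 ± 0.08, adjusted p = 8.3e-19). Mmp9, a gelatinase of migrating osteoclasts, had 3726, 3301 and 3335 CPM at 1 month and 13320, 13362 and 12594 CPM at 6 months. Its rise was 3.79-fold (log2 1.92 ± 0.06), and replicate 2 of the 1-month group was again the highest of its group. For both genes the gap between the ages was larger than the whole spread within either group.

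The largest rise of the list was that of Calcr, the calcitonin receptor, which marks late osteoclasts and through which calcitonin stops resorption. It had 18.2, 18.4 and 16.8 CPM at 1 month and 82.9, 82.3 and 92.1 CPM at 6 months and was 4.78-fold higher at 6 months (log2 2.26 ± 0.10, adjusted p = 7.8e-19). Car2, the carbonic anhydrase that makes the protons to be pumped, had 16.5, 12.9 and 11.9 CPM at 1 month and 58.1, 60.9 and 66.1 CPM at 6 months and was 4.48-fold (log2 2.16 ± 0.11) higher. Siglec15, a sialic acid receptor of multinucleated osteoclasts, was 4-fold (log2 2.00 ± 0.14) higher, and Ckb, the brain-type creatine kinase that supplies ATP near the pump, 4.03-fold (log2 2.01 ± 0.09). Itgb3, the integrin chain of the sealing zone, had 154, 149.5 and 146 CPM at 1 month and 465, 468 and 470.2 CPM at 6 months and was 3.12-fold (log2 1.64 ± 0.06) higher. The smallest rises of the list were those of Plekhm1, an adaptor of lysosome traffic (log2 0.38 ± 0.06), and Ostm1, the partner of the chloride transporter Clcn7 (log2 0.38 ± 0.07). Clcn7 itself was at log2 0.98 ± 0.05. In bulk RNA, a larger share of mature cells in a dish and more RNA per mature cell cannot be told apart.

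**Figure D1:**
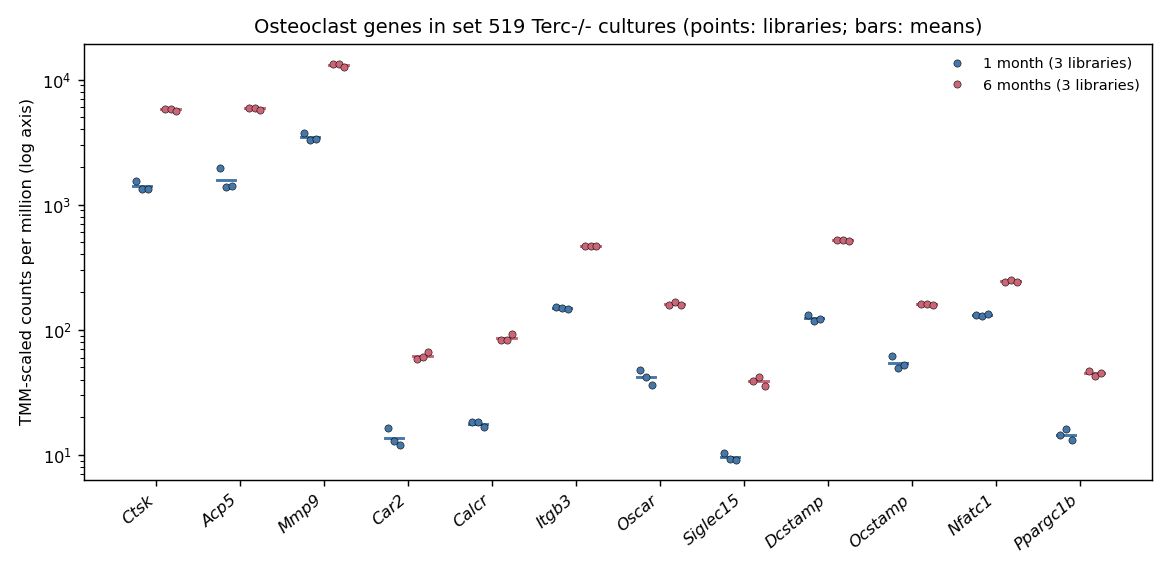
TMM-scaled CPM on a log axis of 12 osteoclast genes in the 3 libraries of each age in set 519, with bars at the group means. For each of the 12 genes the 3 libraries of 6 months lie above the 3 of 1 month, and Ctsk rises from 1344 to 1551 CPM to 5642 to 5860 CPM.

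Oscar, a co-stimulatory receptor of osteoclasts and a gene induced by Nfatc1, had 47.8, 41.8 and 36 CPM at 1 month and 159, 168 and 157 CPM at 6 months and was 3.81-fold higher at 6 months (log2 1.93 ± 0.10, adjusted p = 9.7e-17). Its promoter is shown because Nfatc1 and its target rose together in set 519. The letters TGGAAA, the core that NFAT factors bind, were searched on both strands in the RefSeq promoter windows of GRCm38.p6, which run from 250 bases before to 50 after a start, and of which the 250 before the start are printed. Each promoter printed here and below is the 1st window of its gene that holds all letters to be marked. That they are present was thus fixed by the choice of window. The Oscar window (chr7:3616158-3616407, minus strand) held 2 matches, in capitals.
Oscar: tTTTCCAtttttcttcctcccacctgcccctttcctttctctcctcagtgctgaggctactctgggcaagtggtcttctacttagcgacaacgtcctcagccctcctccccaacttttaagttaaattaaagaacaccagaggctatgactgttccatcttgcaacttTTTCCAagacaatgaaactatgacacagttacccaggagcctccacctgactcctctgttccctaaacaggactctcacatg
Of the 14 resorption genes with a window, 5 held the letters in at least 1 window (35.7%). The share was 23.9% of the 27025 genes in the table and 19.9% of genes tested. These genes have more windows each, and per window the share was 21.7%, close to the 21.4% of all windows. A match is a description of these letters and not a binding site.

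Most genes of the proton pump rose. Of 18 V-ATPase subunits and partners, 15 were higher and 1 lower, against 19.2% and 13.2% of all genes. The median log2 fold change was 0.54. Atp6v0d2, the osteoclast form of the d subunit that is also needed for fusion, had 471, 507 and 486 CPM at 1 month and 904, 904 and 932 CPM at 6 months and was 1.87-fold higher at 6 months (log2 0.90 ± 0.06, adjusted p = 6.7e-14). Atp6v1b2, a subunit of the ATP-splitting head found in osteoclasts, had 1331, 1232 and 1232 CPM at 1 month and 2248, 2249 and 2213 CPM at 6 months and was 1.77-fold (log2 0.82 ± 0.05) higher. Atp6v0c, of the proton-carrying ring, was 1.73-fold (log2 0.79 ± 0.08) higher. The a subunits, which place the pump in a given membrane, moved in different directions. Tcirg1, the a3 subunit that takes the pump to the ruffled border, was at log2 0.74 ± 0.05, while Atp6v0a1, the a1 subunit, had 340.4, 338 and 339 CPM at 1 month and 225, 216 and 221 CPM at 6 months and was 1.54-fold lower at 6 months (log2 -0.62 ± 0.05, adjusted p = 2.5e-12). Atp6v0a2, the a2 subunit, did not pass, at log2 0.11 ± 0.07. Tcirg1 and Atp6v0d2 also stand in the resorption list.

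Atp6v1a, the catalytic A subunit, had 1114, 1260 and 1258 CPM at 1 month and 1833, 1774 and 1870 CPM at 6 months and was 1.51-fold (log2 0.59 ± 0.05) higher. Its promoter (chr16:44139260-44139509, minus strand) is shown for the letters CACGTG, which basic helix-loop-helix factors of the MITF and TFEB family bind, in capitals.
Atp6v1a: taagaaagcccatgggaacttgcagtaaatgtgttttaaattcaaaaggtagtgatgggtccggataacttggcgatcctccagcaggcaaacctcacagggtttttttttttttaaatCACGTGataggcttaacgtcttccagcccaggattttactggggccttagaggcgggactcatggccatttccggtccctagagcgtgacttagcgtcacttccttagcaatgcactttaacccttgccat
The letters stood in windows of 4 of 12 V-ATPase genes (33.3%), against 8.09% of all genes and 11.3% of genes tested. Among p53 targets, of which more fell than rose, 8 of 27 genes held them (29.6%).

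Fusion genes did not move as one group. Of 15 tested, 7 rose and 6 fell, against 19.2% and 13.2% of all genes. The median was 0.32, which turned to -0.10 without 6-month replicate 2. Dcstamp, the multipass receptor without which precursors do not fuse, had 132, 117 and 122 CPM at 1 month and 526, 525 and 508 CPM at 6 months and was 4.204-fold higher at 6 months (log2 2.07 ± 0.07, adjusted p = 7.4e-22). Ocstamp, its partner, had 61.9, 49.9 and 52.4 CPM at 1 month and 160.4, 160.2 and 158 CPM at 6 months and was 2.93-fold (log2 1.55 ± 0.09) higher. Tm4sf19, a tetraspanin-like membrane protein of osteoclasts, was 3.37-fold (log2 1.75 ± 0.11) higher. In contrast, Trem2, a lipid receptor that signals through Tyrobp, had 1184, 909.9 and 934 CPM at 1 month and 550.5, 546 and 537 CPM at 6 months and fell by 0.89 ± 0.07 on the log2 scale. The tetraspanin Cd81 (log2 -0.82 ± 0.06) and the metalloproteinase Adam8 (log2 -0.41 ± 0.05) fell as well.

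In the pathway from RANK to the nucleus, Nfatc1 and several AP-1 and mitochondrial factors rose, while Fos, Fosl1 and Myc fell. Of 30 genes, 12 were higher and 9 lower, against 19.2% and 13.2% of all genes, with a median of 0.07. The balance was not stable: RLE scaling and DESeq2 gave 11 higher and 12 lower, and leaving out 1 library gave 11 to 14 higher and 6 to 11 lower, the 6 without 1-month replicate 2 or 6-month replicate 4. Nfatc1, the master factor of osteoclast formation (ENSMUSG00000033016, chr18:80606205-80713071, minus strand), had 132, 129.9 and 134 CPM at 1 month and 241, 251 and 239.5 CPM at 6 months and was 1.85-fold higher at 6 months (log2 0.89 ± 0.08, adjusted p = 2.2e-11). Tnfrsf11a, which encodes RANK, was at log2 0.55 ± 0.06. Ppargc1b, a coactivator that drives mitochondrial growth in osteoclasts, had 14.5, 16.1 and 13.1 CPM at 1 month and 46.7, 43.1 and 45.05 CPM at 6 months and was 3.02-fold (log2 1.59 ± 0.13) higher. The AP-1 family members Jdp2 and Fosl2 were 2.53-fold (log2 1.34 ± 0.07) and 2.11-fold (log2 1.07 ± 0.07) higher. Fos, the AP-1 member needed at the start of the lineage, had 347, 306 and 326 CPM at 1 month and 168, 175 and 166 CPM at 6 months and was 1.92-fold lower at 6 months (log2 -0.94 ± 0.06, adjusted p = 5.9e-15). Myc and Fosl1, further early response factors, fell by 0.55 ± 0.08 and 0.73 ± 0.17 on the log2 scale.

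The repressors that hold cells in the macrophage state split. Of 13, 6 fell and 3 rose, against 13.2% and 19.2% of all genes. Irf8, which keeps Nfatc1 low in macrophages, had 99.5, 85.01 and 88.4 CPM at 1 month and 45.8, 45.5 and 45.1 CPM at 6 months and was 1.995-fold lower at 6 months (log2 -0.996 ± 0.07, adjusted p = 6.0e-14). Nr4a1 and Id1 fell by 1.06 ± 0.21 and 0.89 ± 0.13 on the log2 scale. Members that rose were Tnfaip3 (log2 0.80 ± 0.06), Cyld (log2 0.33 ± 0.08) and Rbpj (log2 0.35 ± 0.06), the first 2 being enzymes that remove ubiquitin and damp NF-kB.

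Respiratory chain genes of the nucleus were the most uniform group after resorption and mitosis. Of 50 members, 48 rose and none fell, against 19.2% and 13.2% of all genes, with a median log2 fold change of 0.56. Without 1-month replicate 2 the count was again 48, with a median of 0.64. That replicate had the highest mean level of this list in its group, 6.86 on the log2(CPM + 0.5) scale against 6.64 and 6.63, and the 6-month libraries were at 7.27 to 7.29. Sdha, the catalytic subunit of complex II, had 378, 354 and 346 CPM at 1 month and 678, 679.8 and 684 CPM at 6 months and was 1.895-fold higher at 6 months (log2 0.92 ± 0.04, adjusted p = 1.2e-18). Uqcrfs1, the iron-sulphur subunit of complex III, and Uqcrc2, a core subunit of the same complex, were 1.86-fold (log2 0.90 ± 0.06) and 1.79-fold (log2 0.84 ± 0.05) higher. Transcripts of the mitochondrial genome moved less evenly, with 7 of 13 higher and 1 lower, 4 lower without 1-month replicate 2, 3 lower without 6-month replicate 4 and none without 1-month replicate 3 or 4 or 6-month replicate 2. mt-Nd1, mt-Nd2 and mt-Nd5, subunits of complex I, were at log2 0.49 ± 0.06, log2 0.52 ± 0.06 and log2 0.51 ± 0.10. mt-Atp8, the one that fell, had 0.462, 5.59 and 7.95 CPM at 1 month and 0.995, 1.73 and 2.05 CPM at 6 months, so 1-month replicate 2 lay below all 6-month libraries and the other 1-month libraries above them. Polyadenylated RNA was selected, so mitochondrial transcripts are seen only as far as they carry or contain runs of A.

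The Sdha promoter (chr13:74350241-74350490, minus strand) is shown for the letters TGCGCA, the core shared by sites of NRF1, a factor of nuclear respiratory genes, in capitals.
Sdha: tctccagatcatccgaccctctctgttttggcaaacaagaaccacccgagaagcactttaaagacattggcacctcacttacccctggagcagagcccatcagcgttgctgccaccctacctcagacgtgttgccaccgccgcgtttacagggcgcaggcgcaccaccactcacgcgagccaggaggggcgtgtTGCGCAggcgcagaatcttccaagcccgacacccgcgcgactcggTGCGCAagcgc
The letters stood in windows of 10 of 37 genes of this list (27.0%), against 8.79% of all genes and 15.3% of genes tested. They were also found for 6 of 21 mitosis genes (28.6%).

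Genes of iron import and export moved in opposite directions. Tfrc, the transferrin receptor that brings iron in, had 517, 539.6 and 546 CPM at 1 month and 1429, 1346 and 1438 CPM at 6 months and was 2.63-fold higher at 6 months (log2 1.40 ± 0.06, adjusted p = 1.3e-19). Slc40a1, ferroportin, the only known cellular iron exporter, had 175, 186 and 198 CPM at 1 month and 66.1, 66.9 and 65.7 CPM at 6 months and was 2.81-fold lower at 6 months (log2 -1.49 ± 0.08, adjusted p = 2.0e-16). Slc11a1, which moves iron out of phagosomes, fell by 1.04 ± 0.05 on the log2 scale. Steap4, a ferrireductase, and Ncoa4, the receptor for ferritin turnover, were 2.16-fold (log2 1.11 ± 0.12) and 1.54-fold (log2 0.62 ± 0.07) higher. Over the list 7 of 19 members rose and 7 fell, against 19.2% and 13.2% of all genes.

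**Figure D2:**
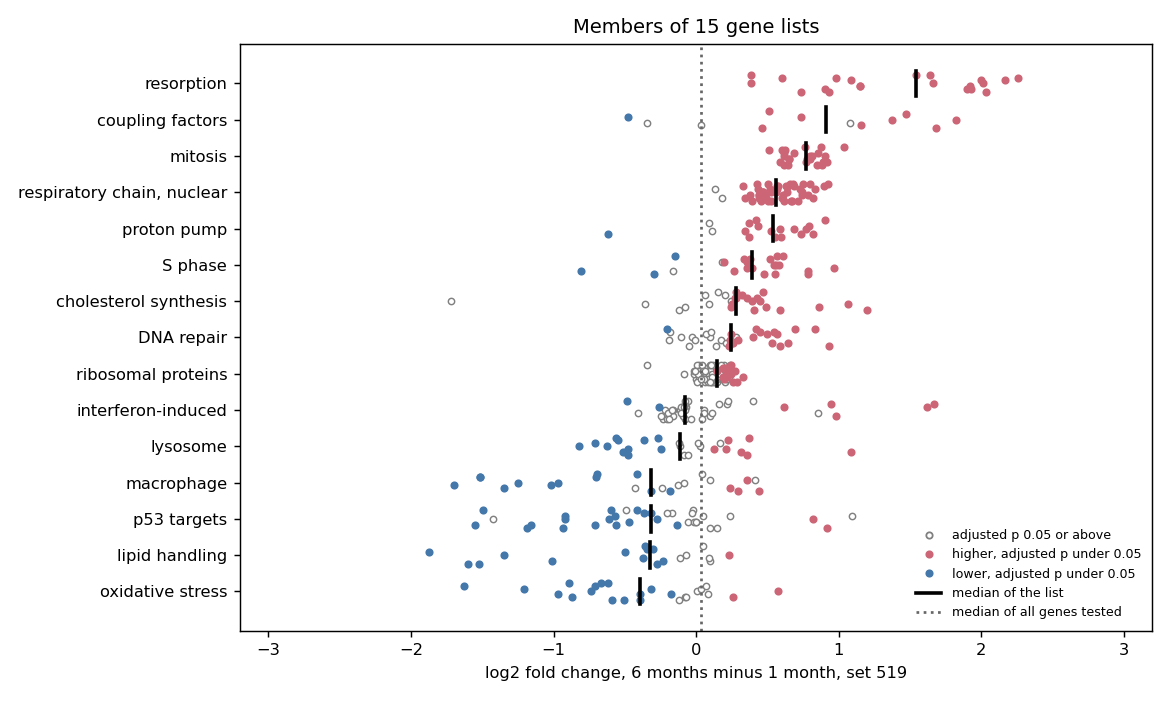
Log2 fold change, 6 months minus 1 month in set 519, of each tested member of 15 gene lists. Filled points passed an adjusted p of 0.05, black bars are list medians and the dotted line is the median of all genes. The medians run from 1.54 for resorption to -0.39 for oxidative stress genes.

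Cell cycle genes rose. All 25 mitosis genes were higher at 6 months, against 19.2% of all genes. In each the libraries of one age did not overlap those of the other, as in 41.4% of all genes. Their median log2 fold change was 0.77, with a range from 0.51 to 1.04. Mki67, the proliferation marker Ki-67, had 116, 147 and 155 CPM at 1 month and 251, 255 and 264 CPM at 6 months and was 1.84-fold higher at 6 months (log2 0.88 ± 0.10, adjusted p = 5.3e-09). Ube2c, which hands ubiquitin to the anaphase-promoting complex, had 25.1, 23.97 and 27.4 CPM at 1 month and 51.5, 57.95 and 47.1 CPM at 6 months and was 2.06-fold (log2 1.04 ± 0.10) higher. Hmmr and Nusap1, spindle proteins, were 1.87-fold (log2 0.90 ± 0.10) and 1.89-fold (log2 0.92 ± 0.09) higher. Cdk1, the kinase that starts mitosis, had 39.8, 40.9 and 47.2 CPM at 1 month and 62.7, 57.8 and 58.8 CPM at 6 months and was at log2 0.51 ± 0.08, the smallest rise of the list. Of 23 S-phase genes, 18 rose and 3 fell, against 19.2% and 13.2% of all genes, with a median of 0.39. Tyms, Uhrf1 and Rrm2, genes of nucleotide supply and DNA methylation upkeep, were 1.95-fold (log2 0.97 ± 0.13), 1.72-fold (log2 0.79 ± 0.09) and 1.72-fold (log2 0.78 ± 0.07) higher. The members that fell were the D-type cyclins Ccnd2 (log2 -0.81 ± 0.12) and Ccnd1 (log2 -0.29 ± 0.07), which act before S phase, and Pcna (log2 -0.15 ± 0.06, adjusted p = 0.0491), which did not pass without 1-month replicate 2 (adjusted p = 0.372) or without 6-month replicate 2, 3 or 4 (adjusted p = 0.0740 to 0.137).

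The promoters of Ube2c (chr2:164769679-164769928, plus strand) and Cdk1 (chr10:69352913-69353162, minus strand) are shown because many mitosis genes are known to carry 2 short elements, the cell cycle homology region with the letters TTTGAA and the CCAAT box. Both are in capitals on either strand, and 2 CCAAT matches of the Ube2c window overlap.
Ube2c: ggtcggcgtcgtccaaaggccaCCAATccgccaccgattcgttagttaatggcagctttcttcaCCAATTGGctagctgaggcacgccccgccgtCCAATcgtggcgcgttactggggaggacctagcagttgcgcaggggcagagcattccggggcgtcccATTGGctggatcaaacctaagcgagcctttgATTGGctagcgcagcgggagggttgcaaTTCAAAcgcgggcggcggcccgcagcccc
Cdk1: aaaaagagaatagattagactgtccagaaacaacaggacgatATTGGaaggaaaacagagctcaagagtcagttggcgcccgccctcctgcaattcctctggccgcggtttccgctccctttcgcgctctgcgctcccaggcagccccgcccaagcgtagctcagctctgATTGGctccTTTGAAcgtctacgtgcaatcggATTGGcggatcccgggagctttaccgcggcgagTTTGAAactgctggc
Of the 21 mitosis genes with a window, 16 held TTTGAA (76.2%), against 20.2% of all genes and 14.6% of genes tested, and 19 held CCAAT (90.5%), against 41.1% and 42.6%. Among 18 S-phase genes the shares were 11.1% and 66.7%. The Ube2c sequence held 1 TTTGAA and 6 CCAAT matches and that of Cdk1 2 and 3.

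DNA repair genes followed with smaller changes. Of 32, 17 rose and 1 fell (none without replicate 2 or 4 of either age), against 19.2% and 13.2% of all genes. The median was 0.24. Fanca and Fancd2, of the Fanconi anaemia pathway that repairs crosslinks, were 1.91-fold (log2 0.94 ± 0.15) and 1.78-fold (log2 0.84 ± 0.16) higher. Of 25 telomere genes tested, 3 rose and 1 fell, below the shares over all genes of 19.2% and 13.2%. The rises were those of Dkc1 and Nop10, proteins of the telomerase particle that bind many other small RNAs (log2 0.38 ± 0.08 and log2 0.38 ± 0.11), and of the helicase Rtel1 (log2 0.28 ± 0.08), the last of which did not pass without 1-month replicate 3 (adjusted p = 0.0765). Daxx, a histone chaperone, was lower (log2 -0.35 ± 0.09). Tert, the reverse transcriptase of telomerase, had 0 to 0.536 CPM, and its difference did not pass (adjusted p = 0.0813). It passed without 1-month replicate 4 (adjusted p = 0.0421).

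p53 target genes fell in the main. Of 35 tested, 18 were lower and 2 higher, against 13.2% and 19.2% of all genes, with a median of -0.32. Cdkn1a, the p21 inhibitor of cyclin-dependent kinases (chr17:29090979-29100722, plus strand), had 628, 540.1 and 563 CPM at 1 month and 378, 376 and 377 CPM at 6 months and was 1.53-fold lower at 6 months (log2 -0.61 ± 0.06, adjusted p = 4.2e-11). Phlda3, which restrains Akt, had 86.1, 64.6 and 64.3 CPM at 1 month and 34.1, 27.3 and 31.6 CPM at 6 months and was 2.28-fold (log2 -1.19 ± 0.12) lower. Btg2, an antiproliferative gene, and Ptpn14, a phosphatase, fell by 1.55 ± 0.22 and 1.497 ± 0.27 on the log2 scale. Pmaip1, which encodes the death factor Noxa, rose by 0.92 ± 0.09, and the stress gene Gadd45b by 0.82 ± 0.16. The transcript of Trp53 itself had 89.5, 83.5 and 80.7 CPM at 1 month and 87.3, 93.2 and 91.6 CPM at 6 months, with overlapping libraries, and did not pass (adjusted p = 0.288). Mdm2, the ubiquitin ligase that p53 induces, was 1.09-fold (log2 -0.13 ± 0.05) lower with an adjusted p of 0.0313. It lost the call in 5 of the 6 fits that left out 1 library, with an adjusted p of up to 0.169.

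Among inhibitors of the cell cycle, Cdkn2a, which encodes p16 and p19, had 87.8, 64.4 and 65.2 CPM at 1 month and 57.3, 55.5 and 58.9 CPM at 6 months. Its fall of 0.33 ± 0.11 on the log2 scale passed (adjusted p = 0.0157) but not without 1-month replicate 2 (-0.17, adjusted p = 0.235). That library had the highest Cdkn2a of the 6. Cdkn2c, the inhibitor p18, was 2.35-fold (log2 1.24 ± 0.08) higher, and Lmnb1, a lamin that is lost in senescent cells, 1.897-fold (log2 0.92 ± 0.09). Of the 15 genes of this list, 5 rose and 3 fell, against 19.2% and 13.2% of all genes, and the median of 0.06 turned to -0.003 with RLE scaling and to -0.03 without 1-month replicate 2.

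Macrophage genes fell or changed little. Of 23 tested, 12 were lower and 4 higher, against 13.2% and 19.2% of all genes, with a median of -0.32. Lyz2, lysozyme, had 26813, 22282 and 22317 CPM at 1 month and 14581, 14537 and 14715 CPM at 6 months and was 1.63-fold lower at 6 months (log2 -0.70 ± 0.05, adjusted p = 4.5e-13). Fcgr3 and Clec7a, receptors for antibody and for fungal glucan, fell by 1.51 ± 0.09 and 1.51 ± 0.10 on the log2 scale. Adgre1, the F4/80 antigen, had 1663, 1675 and 1628 CPM at 1 month and 1461, 1423 and 1490 CPM at 6 months and fell by only 0.18 ± 0.05. Csf1r, the M-CSF receptor, and Spi1, the factor PU.1, which osteoclasts share with macrophages, were at log2 0.24 ± 0.04 and log2 0.29 ± 0.08. Cd14 and Cd68 did not pass (log2 -0.08 ± 0.09 and log2 0.10 ± 0.06). In the list of C1q and tissue macrophage genes, 8 of 17 fell and 2 rose. Gpnmb, a membrane glycoprotein of lysosomes, had 21913, 20466 and 20669 CPM at 1 month and 11588, 11566 and 11324 CPM at 6 months and was 1.83-fold (log2 -0.87 ± 0.06) lower, while C1qa and Pf4 were 1.51-fold (log2 0.60 ± 0.14) and 2.78-fold (log2 1.48 ± 0.22) higher.

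Lipid handling genes fell. Of 18, 12 were lower and 1 higher, against 13.2% and 19.2% of all genes, with a median of -0.33. Apoe, the apolipoprotein by which macrophages export cholesterol, had 877, 688 and 687 CPM at 1 month and 219, 212 and 186 CPM at 6 months and was 3.66-fold lower at 6 months (log2 -1.87 ± 0.15, adjusted p = 4.2e-12). Fabp4 and Cd36, a fatty acid carrier and a scavenger receptor, had 46.7, 44.4 and 42.3 CPM at 1 month and 16.8, 13.3 and 15.6 CPM at 6 months and 1261, 1383 and 1365 CPM at 1 month and 521, 538 and 516 CPM at 6 months. They were 2.87-fold (log2 -1.52 ± 0.10) and 2.55-fold (log2 -1.35 ± 0.05) lower. Genes of cholesterol synthesis moved the other way, with 17 of 26 higher and none lower and a median of 0.28. Insig1, the sterol sensor, had 47.5, 48.9 and 55.9 CPM at 1 month and 105, 101 and 109 CPM at 6 months and was 2.09-fold (log2 1.06 ± 0.08) higher and Idi1 1.81-fold (log2 0.86 ± 0.12).

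Oxidative stress genes under NRF2 fell, 15 of 24 lower and 2 higher, against 13.2% and 19.2% of all genes. Their median was -0.39. Hmox1, heme oxygenase, which frees iron from heme, had 1862, 1563 and 1604 CPM at 1 month and 844, 876 and 856 CPM at 6 months and was 1.95-fold lower at 6 months (log2 -0.97 ± 0.07, adjusted p = 5.6e-14). Gsta3 and Mgst1, glutathione transferases, were 3.098-fold (log2 -1.63 ± 0.10) and 2.31-fold (log2 -1.21 ± 0.08) lower. Sod2, the mitochondrial superoxide dismutase, rose by 0.57 ± 0.08 on the log2 scale. Lysosomal genes went both ways, with 12 of 26 lower and 7 higher, against the same shares of all genes. Ctsd, an aspartic protease of macrophage lysosomes, had 9817, 7978 and 7926 CPM at 1 month and 4866, 4920 and 4805 CPM at 6 months and was 1.76-fold (log2 -0.82 ± 0.07) lower. Glb1, the lysosomal beta-galactosidase, had 206, 176 and 176 CPM at 1 month and 231, 249 and 241 CPM at 6 months and was 1.29-fold (log2 0.37 ± 0.06) higher.

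**Figure D3:**
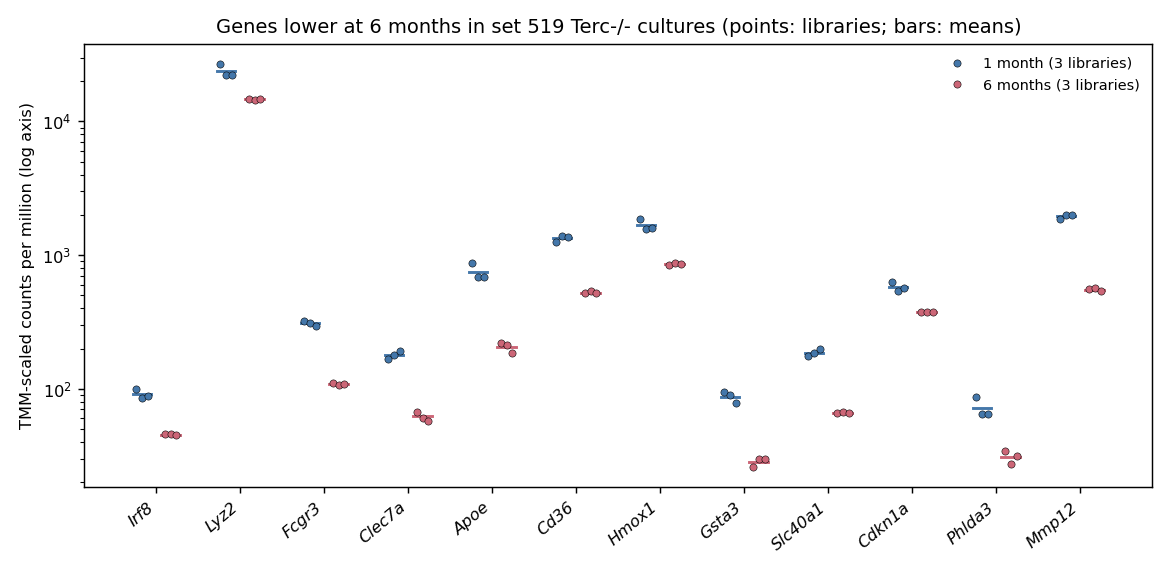
TMM-scaled CPM on a log axis of 12 genes that fell, in the 3 libraries of each age in set 519, with bars at the group means. In all 12 the 6-month libraries lie below the 1-month libraries, and Apoe falls from 687 to 877 CPM to 186 to 219 CPM.

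Several early response genes fell. Egr1, Egr2 and Dusp1, which are switched on within minutes of a stimulus, fell by 2.19 ± 0.23, 0.99 ± 0.13 and 1.03 ± 0.07 on the log2 scale. Egr1 had 17.6, 12.4 and 15.7 CPM at 1 month and 2.98, 4.15 and 2.91 CPM at 6 months. Of the 22 heat shock and early genes 9 fell and 5 rose, against 13.2% and 19.2% of all genes, and 3 rose with RLE scaling or without 1-month replicate 3. Among the rises were Hspd1 and Hsp90aa1, protein-folding chaperones (log2 0.38 ± 0.05 and log2 0.33 ± 0.05). Among cytokines and secreted factors linked to senescence, 11 of 34 fell and 8 rose, against 13.2% and 19.2% of all genes. Without 1-month replicate 3, 5 rose, and the median turned from 0.11 to -0.08. Ptgs2, the inducible cyclooxygenase, had 16.2, 16.4 and 17.5 CPM at 1 month and 3.89, 4.498 and 3.33 CPM at 6 months and was 4.36-fold lower at 6 months (log2 -2.12 ± 0.19, adjusted p = 3.3e-11). Mmp12, the macrophage elastase, had 1873, 1984 and 1993 CPM at 1 month and 556, 563 and 534 CPM at 6 months and was 3.54-fold (log2 -1.82 ± 0.08) lower. Ccl2, a monocyte attractant, had 32.4, 30.02 and 34.1 CPM at 1 month and 58.9, 61.2 and 65.9 CPM at 6 months and was 1.96-fold higher at 6 months (log2 0.97 ± 0.15, adjusted p = 4.5e-06). Saa3, an acute-phase protein, had 11.9, 13.1 and 12.6 CPM at 1 month and 32.4, 33.6 and 30 CPM at 6 months and was 2.52-fold (log2 1.33 ± 0.30) higher, and Nos2, the inducible nitric oxide synthase, 2.71-fold (log2 1.44 ± 0.29) higher. Ccl5 and Lcn2 did not pass, at log2 0.61 ± 0.30 and log2 0.73 ± 0.45, nor did Il1b (adjusted p = 0.991). Of 18 NF-kB feedback genes 8 rose and 1 fell (3 fell with RLE scaling), with Traf1 and Bcl3 at log2 0.84 ± 0.07 and log2 0.79 ± 0.11 and Nfkbiz at log2 -1.10 ± 0.11.

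Interferon-induced genes changed little as a group. Of 40, 5 were higher and 2 lower, against 19.2% and 13.2% of all genes, and the median was -0.08. The lower count ranged from 0 without 6-month replicate 2 or 3 to 7 with no low-count filter or with a replicate block in the 6 samples alone, and the higher count was 5 or 6 in every alternative. Isg15, a ubiquitin-like protein, was at log2 0.21 ± 0.23 and did not pass (adjusted p = 0.511). Irf7, which amplifies the response, had 60.4, 47.2 and 42.5 CPM at 1 month and 90.98, 92.2 and 88.1 CPM at 6 months and was 1.798-fold higher at 6 months (log2 0.85 ± 0.15, adjusted p = 3.7e-05). Ifi27l2a and Ifi44, further interferon-induced genes, were 3.17-fold (log2 1.67 ± 0.16) and 3.07-fold (log2 1.62 ± 0.28) higher. Ifngr1, the receptor chain for interferon gamma, fell by 0.71 ± 0.05 on the log2 scale. Of 12 MHC class II and co-stimulation genes 3 rose and none fell, near the share of rises over all genes (19.2%), and 2 rose without 1-month replicate 3 or 6-month replicate 4. Cd74, the invariant chain, had 18.8, 14.6 and 12.4 CPM at 1 month and 42.9, 39.4 and 40.5 CPM at 6 months and was 2.67-fold (log2 1.42 ± 0.14) higher.

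Factors by which osteoclasts are known to signal to bone-forming cells rose, with a median of 0.91. Of 12, 8 were higher and 1 lower, against 19.2% and 13.2% of all genes. Sphk1, which makes sphingosine-1-phosphate, had 7.24, 6.82 and 5.61 CPM at 1 month and 23.8, 22.7 and 18.5 CPM at 6 months and was 3.21-fold higher at 6 months (log2 1.68 ± 0.17, adjusted p = 9.5e-10). Efnb2, the ligand ephrin-B2, had 7.24, 6.204 and 7.71 CPM at 1 month and 20.6, 17.6 and 18.2 CPM at 6 months and was 2.77-fold (log2 1.47 ± 0.16) higher, and the cytokine Lif 2.23-fold (log2 1.16 ± 0.16). Cxcl16, a chemokine, was the member that fell (log2 -0.48 ± 0.07).

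By the rule for single genes, the largest rise of all was that of Arhgef18, a guanine nucleotide exchange factor, with 3.24, 3.06 and 5.14 CPM at 1 month and 22.97, 21.8 and 24.9 CPM at 6 months, 6.62-fold higher at 6 months (log2 2.73 ± 0.16, adjusted p = 1.3e-15). Cpne8, a calcium-dependent membrane-binding protein, had 12.9, 8.73 and 10.5 CPM at 1 month and 66.9, 69.02 and 60.4 CPM at 6 months and was 6.29-fold (log2 2.65 ± 0.11) higher. Eif2s3y, a Y-linked translation factor gene with a close copy on the X chromosome, had 16.2, 17.3 and 18.9 CPM at 1 month and 67.7, 69.9 and 68.3 CPM at 6 months. It was 3.95-fold (log2 1.98 ± 0.08) higher. The 1-month libraries of unprefixed Terc-/- were low as well, at 18.4 to 18.9 CPM of library total, and the cause was not tested. Kbtbd11, a substrate adaptor of ubiquitin ligases, and Ncald, a neuronal calcium sensor, were 4.68-fold (log2 2.23 ± 0.13) and 3.93-fold (log2 1.98 ± 0.18) higher. H2-Q7, at 2.31, 2.45 and 1.403 CPM at 1 month and 12.1, 10.2 and 8.04 CPM at 6 months, belongs to a family of near-identical MHC class I genes, so its 4.55-fold (log2 2.19 ± 0.27) rise is uncertain. Other genes at the top, Calcr, Car2, Dcstamp, Ctsk, Ckb and Siglec15, are those of osteoclasts described above. The largest fall was that of Sel1l3, a membrane protein, with 27.3, 30.02 and 27.4 CPM at 1 month and 3.62, 4.15 and 3.85 CPM at 6 months, 7.43-fold lower at 6 months (log2 -2.89 ± 0.13, adjusted p = 2.3e-18). Snhg11, a host of small nucleolar RNAs, the adhesion phosphatase Ptprm and the matrix gene Mamdc2 fell by 2.63 ± 0.18, 2.57 ± 0.20 and 2.39 ± 0.14 on the log2 scale. Fabp7, a fatty acid carrier, Igf2bp3, an RNA-binding protein of fetal tissues, and Eef1a2, an elongation factor, fell by 2.18 ± 0.13, 2.00 ± 0.17 and 1.97 ± 0.11. Ccn1, a secreted matrix protein, Abca9, a lipid transporter, and the adaptor Shc2 fell by 2.05 ± 0.16, 2.05 ± 0.25 and 2.07 ± 0.20. In all of these the 3 libraries of one age lay clear of the other 3, which the rule required.

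Markers of other cell types were summed in each library. Counts of members that rose or fell stand against 19.2% and 13.2% of all genes. Those of stromal cells had 1550 to 1560 CPM at 1 month and 1200 to 1260 CPM at 6 months over 21 genes, of which 7 fell and 1 rose (7 and 3 without 1-month replicate 2). None of the 21 was at 0 in all 6 libraries, but Lum had 1 count over all 6. Thy1 and Tagln had at most 0.86 CPM of library total. The most came from Fn1, at 517 to 672 CPM. Col1a2 had 130 to 165 CPM and Col3a1 24.9 to 37.9 CPM. Col1a1 had 109 to 133 CPM at 1 month and 126 to 143 CPM at 6 months, and Postn 44.9 to 48.7 and 55.6 to 60.3 CPM. Acta2, the smooth muscle actin, had 175, 129.8 and 136 CPM at 1 month and 54.8, 56.05 and 50.9 CPM at 6 months and fell by 1.45 ± 0.10 on the log2 scale, and Dcn and Bgn, matrix proteoglycans, by 0.88 ± 0.12 and 0.93 ± 0.10. Neutrophil markers summed to 35.1 to 45.4 CPM at 1 month and 22.1 to 24.5 CPM at 6 months over 15 genes, and 3 of the 5 tested were lower. Csf3r gave the most, at 12.8 to 30 CPM. Elane, S100a9, Ly6g and Retnlg, which define neutrophils, were at 0 in all 6 libraries. Dendritic markers summed to 374 to 424 CPM at 1 month and 234 to 260 CPM at 6 months over 13 genes, 1 of 8 tested being lower, Itgax (log2 -1.47 ± 0.10), which macrophages also express. Flt3 and Siglech were at 0 in all 6. Endothelial markers summed to 172 to 179 and 168 to 179 CPM, most of it from Vwf (111 to 126 CPM) and Eng (37.1 to 51.4 CPM). Of 7 tested, 1 was higher and 1 lower. Kdr had 7.71 to 10.1 CPM at 1 month and 12.2 to 13.5 CPM at 6 months. Cldn5 was at 0 in all 6, Emcn had 1 count over all 6, and Pecam1 and Cdh5 had at most 0.989 CPM. T and NK markers reached at most 4.94 CPM, B and plasma markers 18, mast and basophil markers 3.56 and erythroid and platelet markers 45.8 CPM, of which Pf4 gave the most. The part of such cells in the age changes of osteoclast, macrophage and matrix genes was not tested.

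The same ages were then compared in the unprefixed Terc-/- cultures, which share no library with set 519. There 5742 genes passed, 37.5% of those tested, 3011 higher (19.7%) and 2731 lower (17.8%). Called in both sets in the same direction were 2801 genes, which is 56.4% of the calls of set 519 and 48.8% of those of the unprefixed set, and 244 were called in opposite directions. The age change itself differed between both sets in 2278 genes (14.9%), 1392 with a higher change in set 519 and 886 with a lower one, by the interaction term of the same edgeR fit. Replicates, depth and title set differ together here and cannot be told apart.

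In the unprefixed set 18 of the 21 resorption genes rose and 1 fell, against 19.7% and 17.8% of all genes there. Their starting levels were lower: the mean log2(CPM + 0.5) of the list at 1 month was 5.32 to 5.41 there and 7.40 to 7.57 in set 519. In set 519 Ctsk had a mean of 1413 ± 119 CPM at 1 month and 5784 ± 123 at 6 months, against 72.6 ± 14.5 and 703 ± 40.5 in unprefixed Terc-/- and 559 ± 8.61 and 6477 ± 76.1 in unprefixed WT cultures (mean ± SD, n = 3 each). The level at 1 month in set 519 was thus above that at 6 months in the unprefixed Terc-/- cultures. Its log2 change was lower in set 519, with a difference of -1.24 ± 0.11 (adjusted p = 6.7e-10). Acp5, Ocstamp and Nfatc1 also rose less in set 519, with differences of -0.56 ± 0.12 (adjusted p = 8.2e-04), -0.97 ± 0.13 (adjusted p = 1.7e-06) and -0.64 ± 0.11 (adjusted p = 5.5e-05). Mmp9 and Itgb3 rose more, with differences of 0.57 ± 0.09 (adjusted p = 1.4e-05) and 0.68 ± 0.10 (adjusted p = 1.0e-05). For Calcr, at 0.0329 ± 0.0285 and 0.784 ± 0.119 CPM in the unprefixed set, the difference of -1.96 ± 0.70 (adjusted p = 0.0545) did not pass, and a fold change from so few counts is poorly determined. Over the list, 11 of 21 members had a higher change in set 519 and 3 a lower one, against 9.09% and 5.79% of all genes.

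Most nuclear genes of the respiratory chain differed between both sets. Of 50 nuclear genes, 45 had a higher age change in set 519 and none a lower one, against 9.09% and 5.79% of all genes, and the median change was 0.56 in set 519 and 0.01 in the unprefixed set. Of 13 mitochondrial transcripts 6 had a higher change and none a lower one. For Sdha the change was larger by 0.68 ± 0.06 (adjusted p = 2.0e-10). Of the 18 proton pump genes, 14 had a higher change and 1 a lower one, with medians of 0.54 and -0.003. Atp6v0c, for one, changed by 0.02 in the unprefixed set and differed by 0.77 ± 0.12 (adjusted p = 9.6e-06). Lysosomal genes differed in the same direction, 14 of 26 with a higher change in set 519 and 3 with a lower one, and Glb1 changed by -0.44 in the unprefixed set. Of 25 mitosis genes, 24 also rose in the unprefixed set, against 19.7% of all genes there, and 10 of 25 rose more in set 519. Fos fell in set 519 but changed by 0.47 in the unprefixed set and differed by -1.40 ± 0.08 (adjusted p = 1.6e-14), and so did Myc, with 0.57 and -1.12 ± 0.10 (adjusted p = 5.6e-10). Stromal markers differed as well, 13 of 21 with a lower change in set 519 and none with a higher one.

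**Figure D4:**
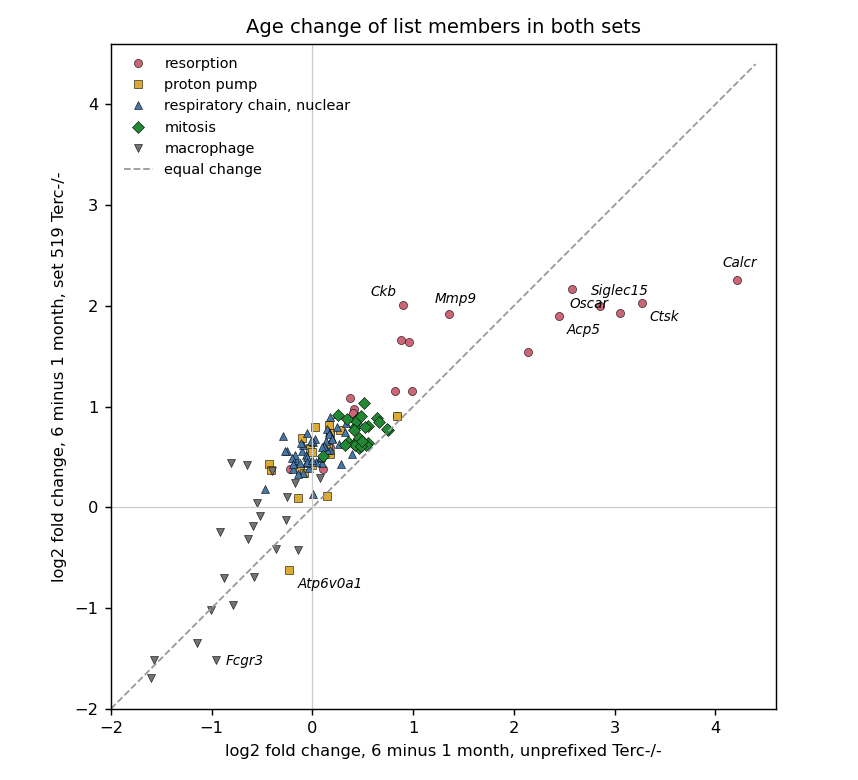
Log2 fold change from 1 to 6 months of members of 5 gene lists in unprefixed Terc-/- cultures (x axis) and in set 519 (y axis), with the line of equal change dashed. Nuclear respiratory chain genes lie between 0.13 and 0.92 on the y axis and between -0.47 and 0.47 on the x axis, and Ctsk lies below the line.

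Of 35 p53 targets 18 were lower in each set, against 13.2% of all genes in set 519 and 17.8% in the unprefixed set. Cdkn1a had means of 577 ± 45.3 and 377 ± 0.769 CPM in set 519 and 734 ± 13.9 and 508 ± 3.72 CPM in the unprefixed set. The difference of the Cdkn1a age changes, -0.08 ± 0.08 (adjusted p = 0.56), did not pass, which does not show that the changes are equal. Cdkn2a, by contrast, differed by -0.51 ± 0.15 (adjusted p = 0.0155), but not without set 519 1-month replicate 2 (-0.35, adjusted p = 0.0830). Of 34 cytokine and secreted factor genes, 10 had a higher change in set 519 and 4 a lower one, against 9.09% and 5.79% of all genes. Among the panel genes, Saa3, Lcn2, Ccl5 and Ccl2 changed by -0.98, -1.06, -0.94 and -0.06 in the unprefixed set and differed by 2.31 ± 0.34 (adjusted p = 8.1e-06), 1.79 ± 0.47 (adjusted p = 0.00711), 1.55 ± 0.32 (adjusted p = 7.8e-04) and 1.02 ± 0.19 (adjusted p = 2.0e-04). For Lcn2 the difference did not pass without set 519 1-month replicate 3 (1.49, adjusted p = 0.0747). Adgre1 fell by 0.18 ± 0.05 in set 519 and changed by -0.59 in the unprefixed set, a difference of 0.41 ± 0.07 (adjusted p = 7.1e-05).

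**Figure D5:**
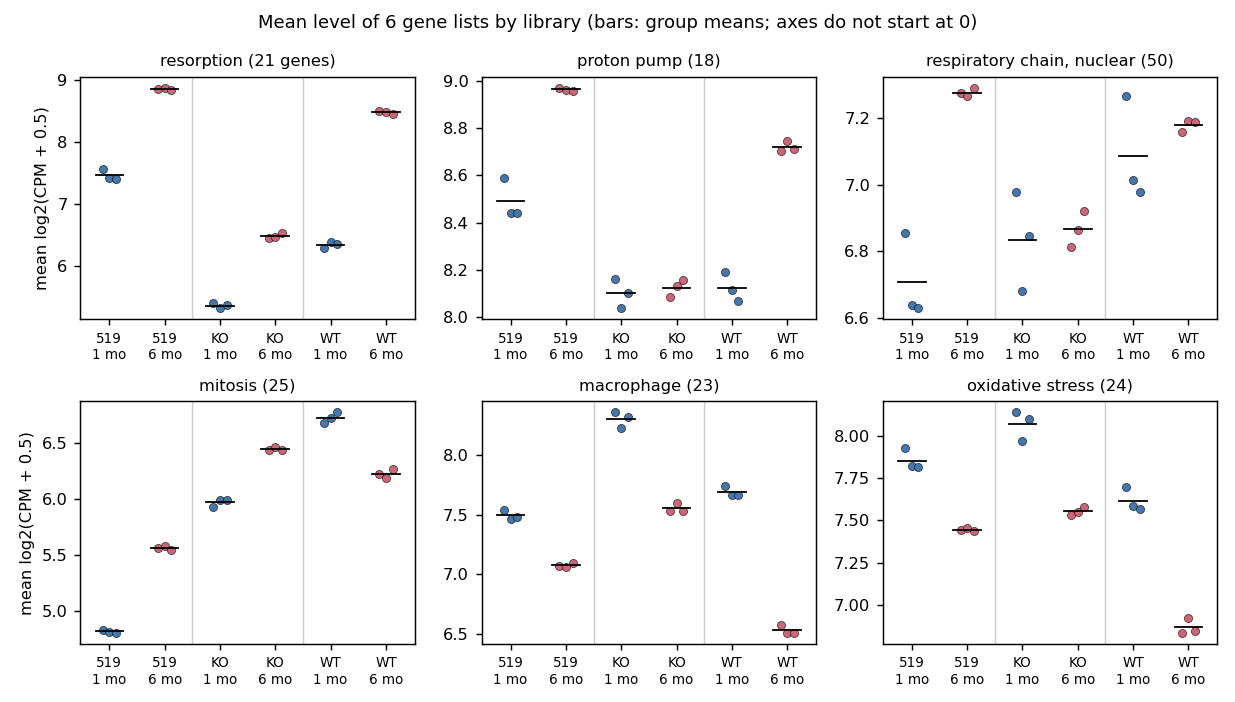
Mean log2(CPM + 0.5) of the tested members of 6 gene lists in each library of set 519, of unprefixed Terc-/- (KO) and of unprefixed WT multinucleated cultures at 1 and 6 months, with bars at group means and axes that do not start at 0. The 6-month libraries of set 519 lie at 7.27 to 7.29 for the nuclear respiratory chain, above their 1-month libraries at 6.63 to 6.86.

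Against the age change of unprefixed WT multinucleated cultures, that of set 519 differed in 6821 genes (44.6%), 3977 with a higher change (26.0%) and 2844 with a lower one (18.6%). Genotype and title set differ together in this contrast and cannot be told apart. All 40 interferon-induced genes tested had a higher change in set 519, with a median difference of 2.08, where the median change within set 519 was -0.08. All 25 mitosis genes had a higher change too, with a median difference of 1.20. Of 21 resorption genes, 12 had a lower change in set 519 and 1 a higher one. The mean log2(CPM + 0.5) of the interferon-induced list in these WT cultures was 5.824 to 6.120 at 1 month and 3.909 to 4.111 at 6 months. In unprefixed Terc-/- cultures it was 5.882 to 6.098 and 6.085 to 6.341. Against the age change of unprefixed Terc-/-, 1 of the 40 had a higher change in set 519 and 3 a lower one. The shares over all genes were 9.09% and 5.79%.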

How the data were processed

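Polyadenylated RNA was sequenced, and the deposited files hold raw read counts per gene that the authors made with featureCounts 1.6.0 over exons of Ensembl release 88 (GRCm38), in paired-end mode with no strand option, per the file headers. The submitters' processing notes name HTSeq and mm10 instead. Reads of overlapping or antisense genes therefore cannot be told apart. The 30 samples were fitted together with edgeR 4.0.16 (R 4.3.3), with TMM scaling, 1 coefficient per group and the filter filterByExpr, which left 15310 of 50686 genes. The quasi-likelihood test was used with Benjamini-Hochberg adjustment over all genes tested (threshold 0.05). It was also run on counts simulated with the spread of the same fit. These hold no library effect like that of 1-month replicate 2, so that run does not check the calls against such an effect. SE is the absolute log2 fold change divided by the square root of F. CPM are counts scaled to 1000000 by the TMM-scaled library size, while values of library total use the plain total. DESeq2 1.42.0 was an alternative.

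The members and gene lists were chosen with earlier results of these data known. Named genes are the 12 largest rises and 12 largest falls among called protein-coding genes with at least 10 CPM and no overlap of libraries, up to 3 per direction in each of 41 lists (at least 5 CPM), and a panel of 30 genes. Atp6v0a2, Atp6v1a, Cd14, Cd68, Cdk1, Clcn7, Csf1r, Oscar, Ostm1, Plekhm1, Tcirg1, Tnfrsf11a, Lars2, mt-Co2 and mt-Atp8 were chosen after their values were seen. So were Fn1, Col1a1, Col1a2, Col3a1, Postn, Lum, Thy1, Tagln, Vwf, Cldn5, Emcn, Pecam1 and Cdh5 among markers of other cells. Promoter sequences are from RefSeq (GRCm38.p6). A gene with 0 counts in all 6 libraries may have a level of up to 0.0556 CPM (3 counts of their total), which covers counting error only. Some panel and list genes are not reported here.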

Additional observations from a re-analysis of the deposited data

Results flagged for a closer look

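Differences of the age change between set 519 and other cultures met the criterion for a closer look, each by the interaction term of the edgeR fit. Against unprefixed Terc-/- cultures 2278 genes differed, and against unprefixed WT multinucleated cultures 6821. Among the panel genes, the log2 change in set 519 minus that in the unprefixed Terc-/- cultures was -1.24 for Ctsk, -0.56 for Acp5, -0.97 for Ocstamp, -0.64 for Nfatc1 and -0.51 for Cdkn2a. It was 0.57 for Mmp9, 0.68 for Itgb3, 0.41 for Adgre1, 1.02 for Ccl2, 1.55 for Ccl5, 1.79 for Lcn2 and 2.31 for Saa3. Markers of fusion and resorption thus stood on both sides, with Ctsk, Acp5 and Ocstamp rising less in set 519 and Mmp9 and Itgb3 more.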

How the results depend on the processing

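Leaving out 1 library at a time gave 4208 to 4813 genes for the age comparison in set 519, of which 2468 to 2925 were higher and 1715 to 1888 lower. The same gave 4878 to 5893 genes for unprefixed Terc-/-, 1805 to 2573 for the difference between both sets and 5706 to 7065 for the difference from WT. Fitted on only the groups compared, the difference between both sets had 876 genes with a higher change in set 519 against 1392, and the cause was not tested. With a replicate block the counts were 4974, 4704, 2066 and 5802 in the same order, and 4372 within the 6 samples of set 519. The labels do not say that a number marks a shared animal, litter or day, so the numbers were not taken to pair samples. Deviations of samples with the same number correlated at 0.038, -0.07 and 0.053 in set 519, too few values to exclude a pairing. Of 2481 values for 191 genes under 13 alternatives in set 519, 2414 kept their direction and call, 65 lost the call, 2 gained it and none reversed; 18 genes were affected. For set 519 the count was 4577 without the filter on low counts and 4917 with a stricter one. DESeq2 left 1188 adjusted p-values of the difference between both sets as NA. Depth in set 519, at most 12987993 counts, limits genes near 1 CPM, as for Tert.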

Other observations

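Eif2s3y (Y chromosome, 1010543-1028847, GRCm38) had 15.6 to 19.0 CPM of library total in the 1-month libraries of set 519 and 18.4 to 18.9 in those of unprefixed Terc-/-. The 6-month libraries had 64.3 to 66.6 and 60.4 to 65.4 CPM, and unprefixed WT multinucleated libraries of 1 month 66.6 to 71.2 CPM. The 1-month WT libraries with D1gaiweiBP in the title had 0 counts of Eif2s3y and 816 to 908 CPM of Xist. Other Y-linked genes differed less between the ages of set 519: Ddx3y had 58.1 to 86.4 and 76.0 to 78.8 CPM, Kdm5d 22.7 to 26.9 and 27.5 to 29.3 CPM, and Uty 17.8 to 24.6 and 22.1 to 24.9 CPM. Xist was at most 0.344 CPM in set 519. The X-linked copy of Eif2s3y is close in sequence, and how reads were shared between both is not given in the sources used here. The cause of the lower level in the 1-month Terc-/- libraries of both sets was not tested.

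Counts in further gene lists moved with the processing and are set against 19.2% higher and 13.2% lower over all genes. Of 79 ribosomal protein genes 17 rose and none fell, with a median of 0.14. The rises numbered 5 with RLE scaling or DESeq2, 26 with no low-count filter, and 3 to 34 when 1 library was left out, the lowest without 1-month replicate 3 and the highest without 1-month replicate 2. Of 26 genes of the unfolded protein and integrated stress responses, 14 rose and 5 fell, and 8 rose with RLE scaling, DESeq2 or no low-count filter. Among 31 glycolysis and hypoxia genes 10 rose and 6 fell, which turned to 6 and 8 with RLE scaling or DESeq2 and was 5 and 4 without 1-month replicate 3. Among 23 histone genes, many with near-identical copies, 5 rose and 1 fell, and 3 rose without 1-month replicate 3.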
